A study of Mus musculus with 8 samples.

Results

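Regulators of the transcription factor NRF2, and NRF2 target genes outside glutathione metabolism, were followed in the ileum of mice with and without the bile acid transporter subunit gene Slc51a. The set was 10 listed genes, Nfe2l2, Keap1, Mafg, Bach1, Nqo1, Osgin1, Sqstm1, Pir, Ugdh and Ephx1, and its members were all probe sets to which the platform annotation assigns that single gene symbol. By this rule 8 genes with 10 probe sets were found among 17097 genes and 45037 probe sets. Nfe2l2 and Bach1 had 2 probe sets each. Keap1 and Sqstm1 had no probe set under a single symbol in the annotation used and were not analysed here.

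Total RNA came from ileal tissue of 4 wild type and 4 Slc51a knockout males on a C57BL/6 background, about 2 months of age and fasted for 4 h. Slc51a encodes 1 of the subunits of the transporter by which enterocytes release bile acids toward the blood. For both genotypes the labels give the same age, fasting time and RNA amount. The labels do not say which cells lost the gene or how it was inactivated. Each sample, numbered as a biological replicate, was hybridised to 1 Affymetrix 3' array, and the number of arrays limits the precision. The labels do not say whether a sample came from a single mouse.

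NRF2, the product of Nfe2l2, pairs with a small MAF protein such as MAFG and binds antioxidant response elements in front of genes of detoxification and redox balance. KEAP1 holds NRF2 in the cytoplasm and has it degraded until electrophiles or oxidants modify KEAP1, and BACH1 competes with NRF2 for the same elements and represses them. The targets described here are enzymes and stress proteins: NQO1 reduces quinones, PIR is an iron-binding nuclear protein, UGDH makes UDP-glucuronic acid for glucuronidation, EPHX1 hydrolyses epoxides, and OSGIN1 is an oxidative stress-induced growth inhibitor.

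The antioxidant response element core TGACNNNGC was searched on both strands in RefSeq promoter windows of mouse assembly GRCm38.p6, each running from 250 bases before to 50 bases after a start given for the gene. All 10 listed genes had a window, and for 8 it was built on the outer end of the gene record. The Mafg window was built on a start 1408 bases inside the gene record and the Osgin1 window on one 11265 bases inside it, so the outer starts of these genes were not searched. Matches are printed because they show which promoters of the set carry the letters that NRF2 and BACH1 bind. Each line runs 5' to 3' on the strand of the gene, with the match in capitals. For Mafg, Pir and the later Ugdh match the element lies on the opposite strand, so the capitals are its reverse complement.
Nfe2l2 (chr2:75704875-75704913, minus strand): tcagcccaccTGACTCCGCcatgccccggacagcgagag
Mafg (chr11:120633741-120633789, minus strand): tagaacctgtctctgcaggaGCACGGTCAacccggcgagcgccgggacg
Pir (chrX:164269197-164269245, plus strand): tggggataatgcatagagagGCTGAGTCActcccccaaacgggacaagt
Ugdh, first match (chr5:65435946-65435994, minus strand): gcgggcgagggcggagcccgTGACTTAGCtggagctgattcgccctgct
Ugdh, second match (chr5:65435908-65435956, minus strand): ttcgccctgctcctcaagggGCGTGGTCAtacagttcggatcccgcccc

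The match in the Nfe2l2 promoter began 240 bases before the start, that of Mafg 222 bases before its internal start, that of Pir 214 bases and those of Ugdh 132 and 94 bases before it. The Pir match read on its own strand is TGACTCAGC, the form whose free bases are TCA, which also contains the AP-1 site. Pir held another core match, TGACTCCGC on the opposite strand, that began 20 bases after the start. Of 32851 windows, 12.4% held the core and 0.454% held the form with TCA, while 4 of the 10 listed genes held the core and 1 held the form with TCA. No match was found in the windows of Keap1, Bach1, Nqo1, Osgin1, Sqstm1 and Ephx1, which says only that these letters are not in these windows. A match is a description of sequence and not of binding.

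Signals are given on a normalised log2 scale, on which 1 unit is a doubling. Differences are those of the knockout from wild type (a positive value is higher in the knockout), given with the standard error (SE) from limma. The SE and interval use a variance that limma moderated across all fitted genes or probe sets, not that of 4 samples per genotype alone. Each adjusted p comes from limma fitted to all genes, 1 probe set per gene, with a threshold of 0.05. Of the 8 measured genes 5 rose, 2 fell and 1 did not pass. Among all genes 30.0% passed, 17.1% higher and 12.9% lower in the knockout. The groups did not overlap for 7 of the 8, against 30.7% of all genes. The median difference of the 8 was 0.34, and that of all genes 0.01. The genes were listed with results of these samples known, so these shares are descriptions. The labels were checked with Slc51a, whose wild type mean was 11.36 ± 0.05 (SD, n = 4) and knockout mean 4.60 ± 0.09, the latter close to the median of all probe sets, 4.58. All 7 measured ileal enterocyte markers were brighter than the median probe set in both genotypes, though 4 of them fell.

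**Figure D1:**
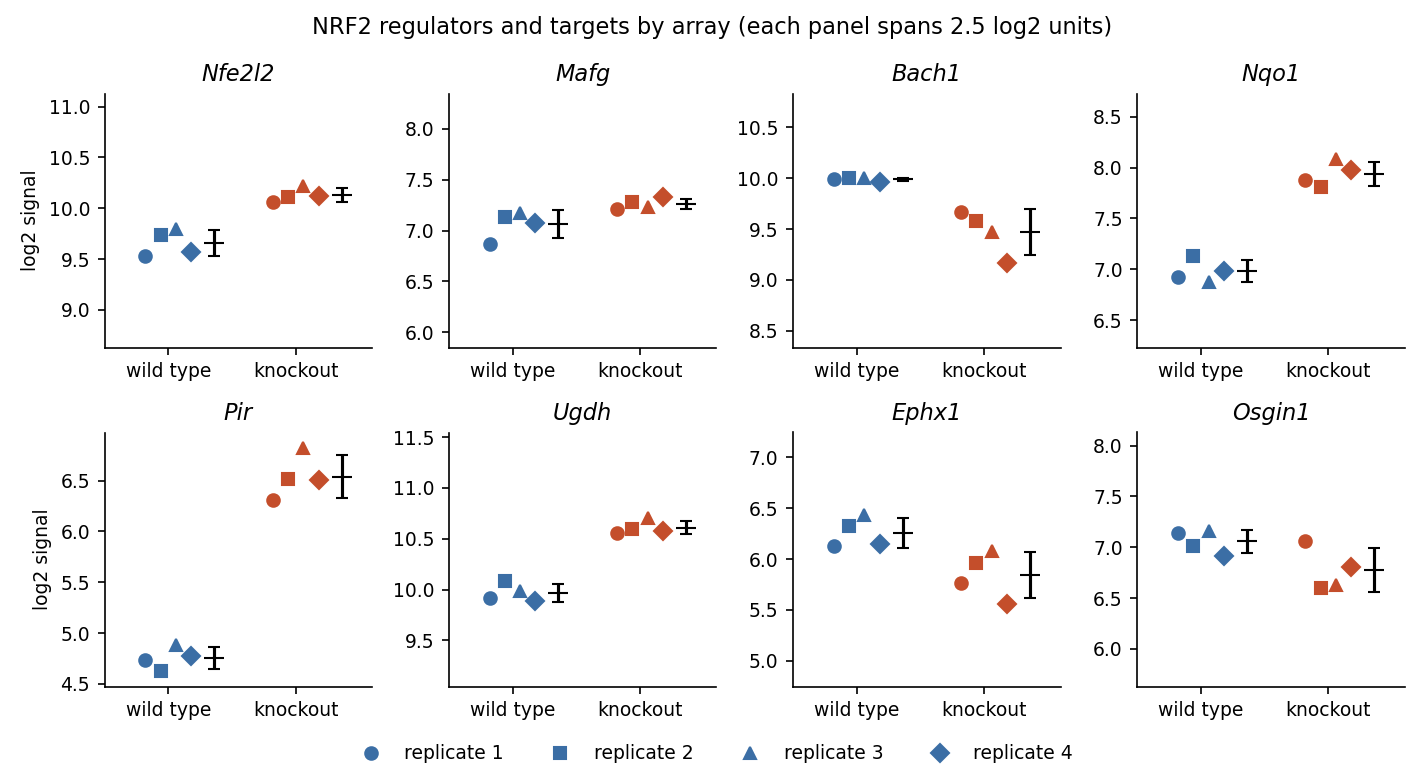
Log2 signal of the probe set that represents each gene (vertical axis) in wild type (blue) and knockout (orange) samples, with marker shape giving the replicate number and the bar giving the mean and SD of 4 arrays. The groups are apart for 7 genes and overlap for Osgin1, and Pir shows the widest separation, 1.43 between the highest wild type and the lowest knockout sample.

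Among the regulators Nfe2l2 rose and Bach1 fell, and Mafg rose by a small amount that passed narrowly. The main Nfe2l2 probe set (1416543_PM_at) was at 9.53, 9.74, 9.79 and 9.57 in wild type and at 10.06, 10.11, 10.22 and 10.12 in the knockout. Every knockout sample was above every wild type sample, with a gap of 0.27. The means were 9.66 ± 0.13 and 10.13 ± 0.07 (SD, n = 4), a rise of 0.47 (SE 0.07, 95% interval 0.32 to 0.62, adjusted p = 0.000318), or 1.39-fold. The other Nfe2l2 probe set (1457117_PM_at) was at 5.32, 5.19, 4.99 and 5.23 in wild type and at 5.22, 5.21, 5.22 and 5.54 in the knockout. Its groups overlapped, knockout 4 stood above the other 7 samples, and its difference of 0.11 (SE 0.09, 95% interval -0.09 to 0.31) did not pass over all probe sets (limma adjusted p = 0.451). With the mean of both probe sets the Nfe2l2 difference was 0.29 (limma adjusted p = 0.00112).

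MAFG is a small MAF protein without a transactivation domain that serves both NRF2 and BACH1 as a DNA-binding partner. Mafg was at 6.87, 7.13, 7.18 and 7.07 in wild type and at 7.22, 7.28, 7.23 and 7.33 in the knockout. The groups were only 0.04 apart, and wild type 1 was the lowest sample. The rise was 0.20 (SE 0.07, 95% interval 0.05 to 0.35, adjusted p = 0.0429), or 1.15-fold. The call was lost on leaving out wild type 1 (difference 0.14, adjusted p = 0.0889), wild type 4 (adjusted p = 0.0799) or any knockout sample (adjusted p from 0.0562 without knockout 1 to 0.0986 without knockout 4). It was lost with quantile (adjusted p = 0.0665) and cyclic loess normalisation (0.0807), and over all probe sets it did not pass (adjusted p = 0.0541).

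BACH1 is the repressor of the set. Its brighter probe set (1440831_PM_at) was at 9.991, 10.006, 9.9999 and 9.968 in wild type and at 9.67, 9.58, 9.47 and 9.16 in the knockout. The wild type samples lay within 0.04 of each other, whereas the knockout samples spread over 0.51, all of them lower than wild type. Bach1 changed by -0.52 (SE 0.09, 95% interval -0.72 to -0.32, adjusted p = 0.00140), so that the knockout held 69.8% of the wild type signal. The other Bach1 probe set (1449311_PM_at) was at 8.055, 8.140, 8.026 and 8.001 in wild type and at 7.79, 7.58, 7.71 and 7.46 in the knockout. It also showed knockout 4 as the lowest sample and no overlap, with a difference of -0.42 (SE 0.07, limma adjusted p over all probe sets 0.00129).

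Markers of other cell types moved in the same samples, in which 17.1% of all genes were called higher and 12.9% lower. All 7 measured T lymphocyte markers fell, with a summed log2 signal of 11.41 to 11.75 in wild type and 8.97 to 9.59 in the knockout. Each sum adds unlogged signals, so its brightest genes lead it, here Gzma, Ccl5 and Gzmb. Their differences were -2.90, -2.56 and -2.62. That of Cd3g was -1.98, and those of Cd3d, Cd8a and Cd3e were smaller, -0.97, -0.67 and -0.23. All 7 measured smooth muscle markers fell as well, from 12.88 to 13.27 in wild type against 12.17 to 12.40 in the knockout. Of 5 B lymphocyte markers 3 fell (12.70 to 12.76 against 12.32 to 12.66), and of 8 macrophage and dendritic markers 4 fell and 1 rose (13.66 to 13.72 against 13.34 to 13.49). Of the 7 measured enterocyte markers 4 fell, from 14.42 to 14.52 in wild type against 14.31 to 14.36, and of 8 crypt and cycling cell markers 5 rose and 2 fell, from 12.37 to 12.45 against 12.41 to 12.58. In the latter list Mki67, Top2a, Bub1, Birc5 and Ccnb2 rose. Olfm4 (-0.18) and Lgr5 (-0.31) fell, and Ascl2 (-0.19) did not pass. Of 6 goblet and Paneth cell markers 2 fell (14.50 to 14.69 against 14.26 to 14.42). Of 4 pancreatic acinar markers Cela1 rose by 1.17 and the other 3 did not pass. The acinar sum was 7.42 to 7.55 in wild type against 8.15 to 8.30. Of 5 liver markers Ttr rose by 1.20 and Apob and Tat fell, and the liver sum was 8.14 to 8.49 against 7.68 to 8.09. In either list 2 markers were dimmer than the median probe set in both genotypes. No lymphocyte or muscle marker was dimmer than the median probe set in both genotypes. Knockout 4, lowest for Bach1, was lowest for the smooth muscle sum at 12.17 and highest among the knockouts for the T lymphocyte sum at 9.59. It was also lowest for the goblet and Paneth, macrophage and dendritic, and liver sums. Among the knockouts it was highest for the B lymphocyte and the crypt and cycling cell sums. In whole tissue, fewer cells of a type and less RNA per cell cannot be told apart, and the part of these markers in the differences of the set was not tested.

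**Figure D2:**
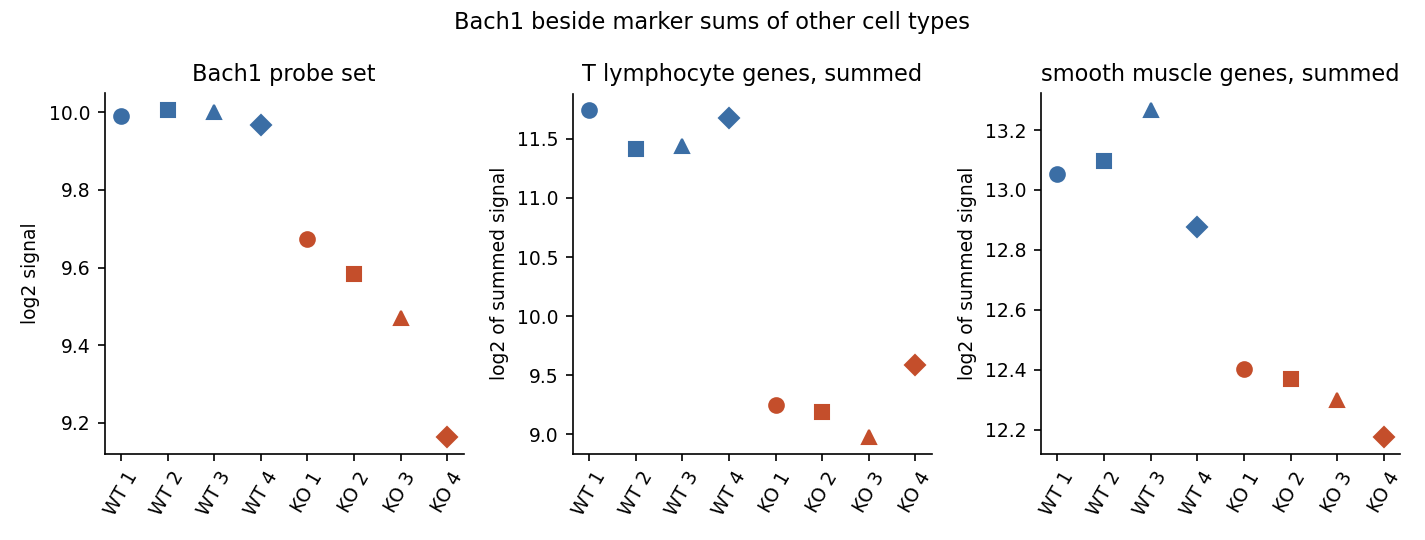
Log2 signal of the brighter Bach1 probe set (left), and log2 of the summed signals of 7 T lymphocyte markers (middle) and of 7 smooth muscle markers (right), in each wild type (WT, blue) and knockout (KO, orange) sample. All 3 measures are lower in every knockout sample, and knockout 4 is lowest for Bach1 and smooth muscle but highest of the knockouts for T lymphocyte markers. Each sum is led by its brightest genes. The sums of enterocyte, goblet and Paneth cell, B lymphocyte, macrophage and dendritic, and liver markers, not shown, are also lower in every knockout sample. In wild type the liver sum is led by Apob, which fell, whereas the liver marker Ttr rose. The pancreatic acinar sum is higher in every knockout sample, and the crypt and cycling cell sum overlaps between the genotypes.

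Among the targets Pir, Nqo1 and Ugdh rose, Ephx1 fell and Osgin1 did not pass. Pir was at 4.74, 4.63, 4.88 and 4.77 in wild type and at 6.31, 6.52, 6.82 and 6.51 in the knockout. The wild type samples lay close to the median of all probe sets, 4.58, so that the difference may be understated. Pir rose by 1.78 (SE 0.10, 95% interval 1.57 to 2.00, adjusted p = 8.57e-07), or 3.44-fold in measured signal.

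Nqo1, a standard readout of NRF2 activity, was at 6.93, 7.13, 6.88 and 6.99 in wild type and at 7.88, 7.80, 8.08 and 7.97 in the knockout. The lowest knockout sample stood 0.67 above the highest wild type sample. The means of 6.98 ± 0.11 and 7.93 ± 0.12 (SD, n = 4) gave a rise of 0.95 (SE 0.07, 95% interval 0.79 to 1.11, adjusted p = 7.15e-06), or 1.94-fold. A difference of this size or larger in either direction was found in 1.26% of all genes.

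Ugdh was at 9.91, 10.08, 9.98 and 9.88 in wild type and at 10.56, 10.60, 10.71 and 10.58 in the knockout. The samples of each genotype were tightly grouped and 0.48 apart, and Ugdh rose by 0.65 (SE 0.06, 95% interval 0.52 to 0.77, adjusted p = 1.68e-05), or 1.56-fold.

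The microsomal epoxide hydrolase gene Ephx1 went the other way. It was at 6.13, 6.32, 6.43 and 6.14 in wild type and at 5.76, 5.96, 6.07 and 5.56 in the knockout. The groups were 0.05 apart and both were spread, by 0.15 and 0.23 (SD, n = 4). Ephx1 changed by -0.42 (SE 0.11, 95% interval -0.66 to -0.18, adjusted p = 0.0127), leaving 74.9% of the wild type signal.

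Osgin1 was at 7.14, 7.02, 7.16 and 6.91 in wild type and at 7.06, 6.60, 6.63 and 6.80 in the knockout. Knockout 1 lay within the wild type range and the other 3 knockout samples lay below it. The difference was -0.28 (SE 0.10, 95% interval -0.50 to -0.06, adjusted p = 0.0527), just short of the threshold. Without knockout 1 it was -0.38 (adjusted p = 0.00457), without wild type 4 it was -0.33 (adjusted p = 0.0415), and on leaving out any of the other 6 samples it did not pass. It passed in 8 of the 18 alternatives tried.

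**Figure D3:**
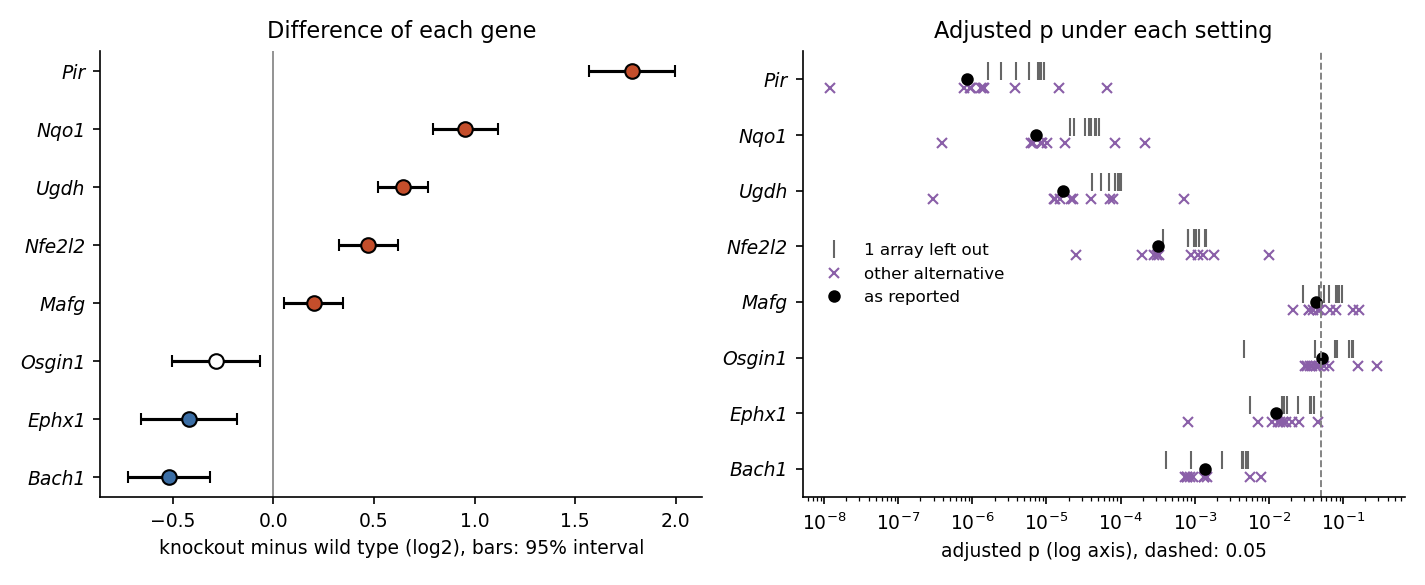
Left, knockout minus wild type difference in log2 signal of each gene (points, coloured where adjusted p is at most 0.05, open where not) with its 95% interval (bars). Right, adjusted p on a log axis as reported (dots), with 1 array left out (ticks) and under the other alternatives (crosses), with the threshold of 0.05 dashed; only Mafg and Osgin1 fall on both sides of it.

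The probe set fit, adjusted over 45037 probe sets, gave the same calls for the 8 probe sets that represent the genes, apart from Mafg. Of the 10 probe sets of the set 4 were higher and 3 lower, against 11.8% and 9.81% of all probe sets called in those directions and 21.6% in either. Several genes also shared their highest or lowest knockout sample, though the full order of the knockout samples differed between genes. Knockout 3 had the highest knockout signal for Nfe2l2, Nqo1, Pir and Ugdh, which is 4 of the 5 genes that rose. It was also the highest for Ephx1, which fell. Knockout 1 had the lowest knockout signal for Nfe2l2, Mafg, Pir and Ugdh. Knockout 4 had the lowest for Bach1 and Ephx1, and knockout 2 the lowest for Osgin1. How often this occurs among all genes was not counted. Wild type 2, knockout 3 and knockout 4 had the lowest of the 8 mean hybridization control signals (8.11, 8.13 and 8.22, against 8.49 to 8.78 in the others). Without these 3 arrays 4 genes of the set rose and 2 fell, with Pir at 1.61, Nqo1 at 0.91, Ugdh at 0.65, Nfe2l2 at 0.45, Bach1 at -0.36 and Ephx1 at -0.37, while Mafg did not pass (0.21, adjusted p = 0.166). In that fit 2079 of all 17097 genes were called higher and 1414 lower.

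Genes with the profile most like that of Nfe2l2 over the 8 arrays were sought by the root mean square difference between log2 profiles centred on each gene's mean, among 10928 other genes at or above the median of all probe sets. The 5 nearest were Tgif1 (0.05), Gclm (0.06), Gtf2e2 (0.06), Hmgn5 (0.06) and Ipo7 (0.06). Gclm, the modifier subunit of glutamate-cysteine ligase, differed by 0.42 between the genotypes, close to the 0.47 of Nfe2l2. The 5 nearest to Nqo1 were the aldo-keto reductase Akr1c12 (0.09), the pyruvate kinase Pkm (0.09), Phb (0.09), the mitochondrial elongation factor Tufm (0.09) and the ribosomal protein Rpl14 (0.10). Akr1c12 rose by 1.07 and Pkm by 0.94. The genotype difference makes up most of such a profile, so nearness here is largely nearness in that difference.

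The other genes of the pathway were listed in 3 groups from general knowledge of it. Earlier results of these data were known by then, so the shares of these groups are descriptions. Of 24 measured genes of the NRF2 complex and its turnover, 4 rose, 10 fell and 10 did not pass, and their median difference was -0.12. Among all genes 17.1% were called higher and 12.9% lower. The number of this group that rose was thus near the share of all genes, and the number that fell was above it. The small MAF gene Mafk fell from 7.74 ± 0.05 to 7.20 ± 0.08 (SD, n = 4), a difference of -0.54 (SE 0.05, adjusted p = 3.22e-05), as did Maff, named after its value was seen (-0.45, SE 0.09, adjusted p = 0.00200). Mafg and Mafk, which encode interchangeable partners of NRF2, thus differed in opposite directions, though Mafg passed narrowly as given above. Bach2, the lymphocyte-enriched relative of Bach1, changed by -1.32 (SE 0.11) and the kinase gene Fyn, abundant in T lymphocytes, by -0.97 (SE 0.08). In the same samples all 7 measured T lymphocyte markers and 3 of 5 B lymphocyte markers fell. The part of either in these differences was not tested.

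The 4 that rose were Park7 (0.52, SE 0.04, adjusted p = 1.45e-05), whose product DJ-1 stabilises NRF2, Dpp3 (0.31), a peptidase that binds KEAP1, Pgam5 (0.24), a KEAP1-bound mitochondrial phosphatase, and Rbx1 (0.20), the RING subunit of the ubiquitin ligase that KEAP1 serves. Without the 3 arrays with low hybridization controls, a fit with fewer samples, 2 of this group were called higher. The differences that did not pass there were 0.17 for Pgam5 (adjusted p = 0.216) and 0.18 for Rbx1 (adjusted p = 0.0774). Both were also lost with quantile normalisation (adjusted p = 0.0539 and 0.0525) and with cyclic loess (0.0757 and 0.122), where the Rbx1 difference was 0.11. Pgam5 lost its call on leaving out 5 of the 8 samples in turn, with adjusted p up to 0.0838 without wild type 2.

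Glutathione and thioredoxin targets were mostly higher. Among 17 measured genes there were 15 that rose, 0 that fell and 2 that did not pass, and the median difference was 0.49. Of all genes 17.1% were called higher and 12.9% lower. The glutathione transferases Gsta2, Gsta4 and Gstm1 rose by 2.95, 1.99 and 1.58 and the glutathione reductase Gsr by 1.09, each with groups that did not overlap. With the mean of all probe sets of a gene Gsta2 rose by 2.01 and Gstm1 by 1.04. Among 30 other targets 19 rose, 3 fell and 8 did not pass, against the same shares of all genes, and their median was 0.27. There the carbonyl-reducing enzymes Akr1b8, Akr1c13 and Cbr3 rose by 2.58, 1.40 and 1.32, and Pgd of the pentose phosphate pathway by 0.78 (SE 0.05).

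The 3 other targets that fell, beside Ephx1 in the set itself, were the catalase gene Cat (-0.72, SE 0.06), the iron exporter gene Slc40a1 (-0.51, SE 0.10) and the ferritin heavy chain gene Fth1 (-0.16, SE 0.04). Without the 3 arrays with low hybridization controls 1 of them was called. Slc40a1 was then at -0.33 (adjusted p = 0.0652), a smaller difference, and Fth1 at -0.15 (adjusted p = 0.117), close to its value over all arrays. With cyclic loess the Fth1 difference was -0.26. The heme oxygenase gene Hmox1, the best-known target of BACH1 repression and named here after its values were seen, averaged 4.52 ± 0.11 and 4.54 ± 0.06 in the wild type and knockout samples, below the median probe set in either genotype, and its expression is therefore not shown.

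**Figure D4:**
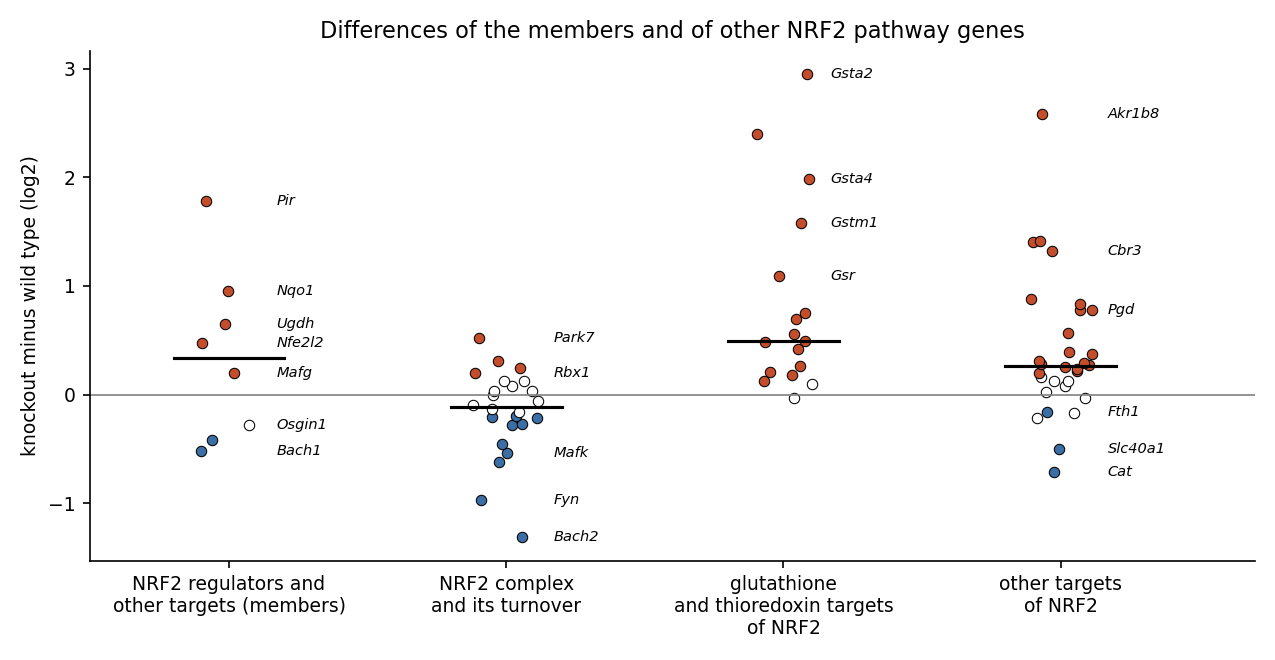
Knockout minus wild type difference in log2 signal (vertical axis) of each gene of the set and of 3 lists of other NRF2 pathway genes, coloured where adjusted p is at most 0.05 (orange higher, blue lower) and open where not, with the median of each group as a line and named genes labelled where there was room. The median is 0.34 for the set, -0.12 for the complex and its turnover, 0.49 for glutathione and thioredoxin targets and 0.27 for other targets.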

How the data were processed

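The deposited table holds log2 probe set values from the authors' RMA processing, per the submitters' processing notes; which RMA program was used is not given in the sources used here. This step subtracts background, gives all arrays 1 distribution of probe signals and then combines the probes of a probe set, which compresses low signals. The array medians of the resulting probe set values ran from 4.56 to 4.60. Each array was made from 250 ng of RNA, per the labels' protocols, and nothing in the sources used here gives its strip or scan date.

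Symbols came from the platform annotation and were updated through Entrez identifiers to RefSeq of GRCm38.p6. For a gene with several single-symbol probe sets, the one with the highest mean over the 8 arrays was taken, without a filter, and 104 control probe sets were dropped. The genotypes were compared in R 4.3.3 by limma 3.58.1 (lmFit, eBayes, 2-sided, Benjamini-Hochberg over 17097 genes or 45037 probe sets). The set, the pathway lists and the marker lists were chosen with earlier results of these data known. Named genes were all members, up to 4 called genes per pathway list with the smallest adjusted p, every called gene against its list's more frequent direction, and 5 nearest profiles each for Nfe2l2 and Nqo1. Scripts were tested on simulated data. Figures used matplotlib 3.10.9.

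Same-numbered samples of both genotypes were not stated to be paired, and no block was used. Alternatives were a filter on dim genes, 3 normalisations, averaged probe sets, a trended robust prior in eBayes, weights for arrays, a replicate block and leaving out each array. Leaving out 3 arrays with low hybridization controls, using these controls as a covariate, and applying the alternatives to the pathway lists were added after the data were seen.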

Additional observations from a re-analysis of the deposited data

Results flagged for a closer look

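In the 4 knockout samples the dimmer of the 2 Nfe2l2 probe sets had 1 sample apart from the others. Knockout 4 was at 5.54 and the other 3 at 5.21 to 5.22, so that its gap was 0.978 of the group's whole range, above Dixon's 95% critical value for 4 samples. It was the only such case among 20 groups of 4 examined, and chance flags about 1 in 20 groups. The brighter Nfe2l2 probe set had knockout 4 at 10.12, within the other knockout samples.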

How the results depend on the processing

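The differences of Pir, Nqo1, Ugdh, Nfe2l2, Bach1 and Ephx1 kept their direction and passed under all 18 alternatives. Pir ran from 1.61 to 1.86, Nqo1 from 0.86 to 1.00, Ugdh from 0.55 to 0.68, Nfe2l2 from 0.29 to 0.52, Bach1 from -0.61 to -0.36 and Ephx1 from -0.50 to -0.32. Mafg and Osgin1 kept their direction in all 18 and passed in 8 each, with adjusted p from 0.0214 to 0.166 and from 0.00457 to 0.292. The cause was not tested. On leaving out 1 array, 4 to 5 genes of the set were higher and 2 to 3 lower. Among all 17097 genes 2493 to 2853 were then higher and 1873 to 2100 lower. The samples were not treated as paired: deviations of same-numbered samples correlated at 0.22, -0.05, 0.11 and 0.16 for numbers 1 to 4, over 0.1 in 3 of 4 pairs, and 5 of the 8 samples correlated best with their own number. With the replicate block 5 genes of the set were higher and 3 lower, Osgin1 passing (adjusted p = 0.0312), and 2945 genes were higher and 2245 lower overall.

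Without the 3 arrays with low hybridization controls, a fit with fewer samples, fewer genes were called in both directions. Those higher in the knockout numbered 2079 rather than 2924 and those lower 1414 rather than 2210. The complex and turnover genes called higher numbered 2 rather than 4 and the other targets called lower 1 rather than 3. A second version of the same controls on these arrays did not set the 3 apart together: their means ran from 9.35 to 9.54, with knockout 3 the lowest (9.35), wild type 2 the highest (9.54) and knockout 4 at 9.51. Hmox1 was not called in any alternative that kept it, and on leaving out 1 array it ran from -0.032 without wild type 3 to 0.049 without wild type 4. Of all called genes 57.0% were higher, against 48.7% with cyclic loess and 62.7% with median centring. The median difference of all genes stayed between 0.003 and 0.03 under the 3 normalisations. With RMA values and no detection calls, an expressed and an unexpressed transcript near the median of all probe sets were not separated.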
